A study of Mus musculus with 18 samples.

Results

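The genes described here encode 10 membrane transporters that carry bile acids, phospholipid, conjugated organic anions and sterols through the hepatocyte. They were taken by symbol from a count table of 53379 genes, and all 10 had a row. Slc10a1, Slco1a4 and Slco1b2 encode uptake carriers of the sinusoidal (blood-facing) membrane. Abcb11, Abcb4 and Abcc2 encode canalicular (bile-facing) export pumps, Abcg5 and Abcg8 encode the 2 subunits of the canalicular sterol exporter, and Abcc3 and Abcc4 encode basolateral exporters that return conjugates to blood. They were chosen by function, with earlier results of these data known.

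RNA was sequenced from female BALB/cJ mice (an inbred strain) that had all been lethally irradiated at 6 to 8 weeks of age. The control group (BM) received 10000000 bone marrow cells alone, and the other group (BMT) received the same marrow with 1000000 T cells. Tissue was taken on day 7, as bulk liver and as isolated epithelium of the small and large intestine. Each of the 3 tissues has 3 BM and 3 BMT libraries, and the descriptions carry 6 numbers that recur in every tissue, 3 in BM and 3 in BMT. They are read here as mouse numbers, which the labels do not state. The labels do not say which strain the donor cells came from.

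Library totals ran from 18845483 to 25610937 counts, so 3 counts, taken as the limit of detection, equal 0.117 to 0.159 CPM (counts per 1000000 of a library's total). The labels of the intestinal libraries disagree. Code LI goes with the title small intestine in 6 libraries, and code SI with the title large intestine in the other 6. Hoxb13, which is expressed in hindgut, measured 41.9 to 170 CPM where the code is LI and had 0 counts in all libraries of the other code. Fabp6, the ileal bile acid binding protein gene, stood at 1184 to 9995 CPM in code SI and 0.853 to 11.9 CPM in code LI. The sets are therefore called by their codes. One library stands apart: code SI BMT replicate 3 held 94.8 CPM of Alb (albumin) and 9.04 CPM of Ahsg, both made by hepatocytes, against at most 1.16 and 0.0531 CPM in the other code SI libraries. In liver the hepatocyte marker list (15 of 16 genes matched) summed to 136765 to 202668 CPM in BM and 144517 to 168719 CPM in BMT.

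Bile acids circulate between liver and intestine. Hepatocytes take them up from portal blood with sodium through the Slc10a1 product (NTCP) and without sodium through organic anion carriers of the Slco family, and export them to bile through the Abcb11 product (BSEP). The Abcb4 product moves phosphatidylcholine into bile, the Abcc2 product exports glucuronide and glutathione conjugates, and the Abcg5 and Abcg8 products act only as a pair, moving cholesterol and plant sterols into bile and, in the intestine, back into the lumen. When bile flow is impaired, the Abcc3 and Abcc4 products can carry conjugated bile acids back to blood.

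Abcg5 and Abcg8 lie head to head on chromosome 17, and the stretch between their start sites is shown because these genes share it and because at least one of them fell with T cells in each tissue described below. RefSeq promoter entries (build GRCm38.p6) were used for 9 of the 10 genes, with the first start listed for each gene. Abcg8, Slc10a1 and Abcc4 have 2 listed starts each. As counted, the Abcg8 gene begins at chr17:84676302, which is 6819 bases before the start used here and inside Abcg5. The counted genes therefore overlap, and the stretch below is defined by the RefSeq starts only. Between the RefSeq starts of Abcg5 (minus strand) and Abcg8 (plus strand) lie 109 bases, chr17:84683012-84683120. They are written on the plus strand with capitals on motif matches.
Abcg5 to Abcg8: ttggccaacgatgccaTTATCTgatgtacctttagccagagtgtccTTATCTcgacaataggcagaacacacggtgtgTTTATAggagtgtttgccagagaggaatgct
The capitals are 2 matches to the GATA site AGATAA and 1 to the TATA box TATAAA, all on the minus strand. The GATA matches begin 17 and 47 bases from the Abcg5 start and the TATA match begins 79 bases from it. Of 32851 mouse promoter entries, 0.186% held 2 or more AGATAA matches in the 109 bases before the start. Neither the LXR element (AGGTCA repeated in the same direction after 4 bases, in 0.0152% of the 250-base windows) nor the FXR element (AGGTCA facing its reverse complement across 1 base, 0.00609%) matched in this stretch. Both strands were searched. The other motifs were the nuclear receptor site AGGTCA alone (14.0% of windows), which both elements contain, the HNF1 site GTTAAT (6.43%), the GC box GGGCGG (32.7%) and the HNF4 core CAAAGTCCA (0.384%).

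The 250 bases before the start of Slco1a4, the gene with the greatest liver change of the 10, are chr6:141856221-141856470, and those of Slc10a1, the single gene of the 10 with an estimate above 0 in liver, are chr12:80968706-80968955. Both are written in the direction of the gene, on the minus strand.
Slco1a4: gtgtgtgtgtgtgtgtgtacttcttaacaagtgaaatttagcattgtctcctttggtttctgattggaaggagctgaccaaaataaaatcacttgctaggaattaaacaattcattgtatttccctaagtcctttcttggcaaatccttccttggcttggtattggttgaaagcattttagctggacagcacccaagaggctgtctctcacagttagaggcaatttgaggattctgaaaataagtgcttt
Slc10a1: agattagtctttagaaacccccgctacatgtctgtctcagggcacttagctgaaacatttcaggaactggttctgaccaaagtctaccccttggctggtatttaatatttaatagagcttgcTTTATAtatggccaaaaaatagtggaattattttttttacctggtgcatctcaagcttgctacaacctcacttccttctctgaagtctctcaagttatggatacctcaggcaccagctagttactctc
No searched motif matched before Slco1a4, and the capitals before Slc10a1 mark 1 TATAAA match on the other strand. TATAAA occurs in 12.4% of all promoter windows of this length. A match is a description of the letters and was not tested as a binding site.

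In bulk liver, 2 of the 10 transporter genes fell with T cells and none rose. The genes that fell were Slco1a4, an uptake carrier of organic anions, and Abcg8, a subunit of the sterol exporter. Calls are at an adjusted p of 0.05, where each p below comes from the quasi-likelihood test of edgeR and is adjusted over all genes tested by the Benjamini-Hochberg method. Of 14134 liver genes tested, 3.35% were called lower and 7.46% higher. Estimates lay below 0 for 9 of the 10 genes, as they did for 52.2% of all genes, and the median log2 fold change (BMT over BM, TMM-scaled) was -0.59 for the 10 and -0.02 for all genes. At an unadjusted p under 0.05 there were 5 of the 10, all lower, against 26.2% of all genes in either direction. With DESeq2 4 fell and none rose, where 5.43% of all genes were called lower and 9.95% higher. In bulk tissue, fewer cells of a type and less RNA per cell cannot be told apart.

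**Figure D1:**
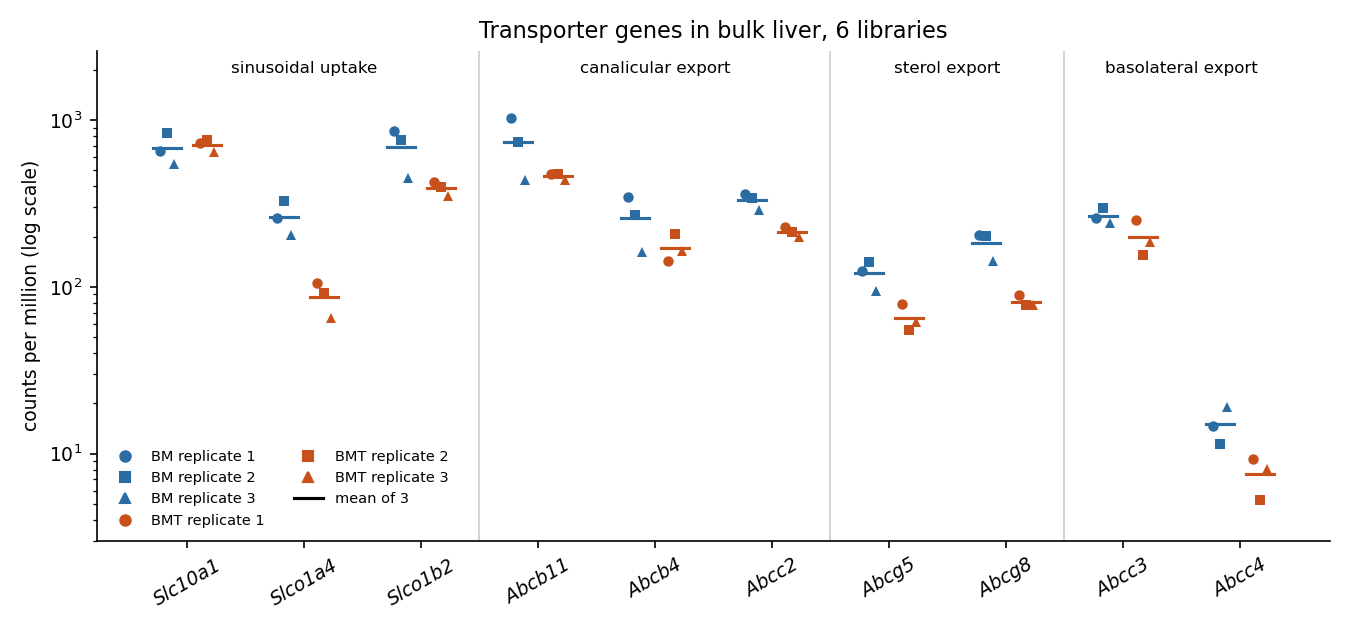
CPM (log scale) of the 10 genes in the 3 BM and 3 BMT liver libraries, with each group's mean as a bar. The BMT values of Slco1a4 (65.2 to 105) and Abcg8 (77.7 to 88.9) all lie below the BM values, while those of Slc10a1 lie within the BM range.

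Of the uptake carriers, Slco1a4 (ENSMUSG00000030237.14, chr6:141805440-141856199, minus strand) had 258, 325 and 203 CPM in BM replicates 1 to 3 and 105, 91.2 and 65.2 CPM in BMT replicates 1 to 3. The groups did not overlap, with the highest BMT value well under the lowest BM value. Its log2 fold change was -1.41 ± 0.28 (SE, n = 3 per group), a 2.66-fold lower level, with an adjusted p of 0.0179. The adjusted p was 0.0661 without BM replicate 2, 0.0822 without BMT replicate 2 and 0.0521 without BMT replicate 3. Slco1a4 shares 2.73% of its 50-base transcript stretches with other genes, among them Slco1a1, Slco1a5 and Slco1a6, so a small part of its reads could be counted elsewhere.

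Slco1b2 (chr6:141629518-141686646, plus strand), which encodes the main liver-specific carrier of its family in mouse, had 854, 762 and 451 CPM in BM and 424, 397 and 349 CPM in BMT. Every BMT library was below every BM library on this scale, but BM replicate 3 stood much nearer to the BMT libraries than to its own group. The log2 fold change of -0.66 ± 0.29 did not pass the test (adjusted p = 0.192). Slc10a1 (chr12:80953183-80968705, minus strand) had 652, 839 and 546 CPM in BM and 731, 758 and 643 CPM in BMT. The BMT values lay within the BM range, and its log2 fold change was 0.24 ± 0.22 (adjusted p = 0.55, interval of 2 standard errors -0.21 to 0.68).

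None of the canalicular bile salt, phospholipid and conjugate pumps passed the test in liver. Abcb11 (chr2:69238282-69342616, minus strand) had 1023, 740.2 and 436 CPM in BM and 476, 474 and 434 CPM in BMT. The 3 BMT values were close together, while the BM values spread over more than the distance between the group means, and BM replicate 3 lay among the BMT values. The log2 fold change was -0.51 ± 0.32 (adjusted p = 0.361). Abcb4 (chr5:8893717-8959231, plus strand) had 347, 268 and 162 CPM in BM and 143, 207 and 163 CPM in BMT, and the groups overlapped (log2 fold change -0.45 ± 0.31, adjusted p = 0.395). It shares 3.42% of its 50-base stretches with Abcb1a and Abcb1b, its close relatives.

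Abcc2 (chr19:43782192-43840740, plus strand) had 360, 340 and 289 CPM in BM and 229, 214 and 199 CPM in BMT. The groups did not overlap in CPM, and the spread was smaller than for the other canalicular pumps. The log2 fold change of -0.45 ± 0.18 did not pass (adjusted p = 0.161).

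The sterol exporter genes showed the second call in liver. Abcg8 (ENSMUSG00000024254.15, chr17:84676302-84700333, plus strand) had 204, 202 and 143 CPM in BM and 88.9, 77.7 and 77.98 CPM in BMT. All 3 BMT libraries lay within a narrow band far below the lowest BM library. The log2 fold change was -0.999 ± 0.21, a 2.00-fold lower level, with an adjusted p of 0.0233. The adjusted p was 0.0891 without BM replicate 2 and 0.0533, 0.108 and 0.0886 without BMT replicates 1, 2 and 3. Abcg5 (chr17:84658234-84683011, minus strand) had 125, 142 and 94.7 CPM in BM and 78.9, 55.0 and 61.9 CPM in BMT, again without overlap. Its log2 fold change of -0.71 ± 0.24 did not pass (adjusted p = 0.103), and a difference between the 2 genes' changes was not tested.

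Abcg5 and Abcg8 overlap on opposite strands over 82 exon bases, 3.02% of the exon length of Abcg5 and 2.19% of that of Abcg8. The sources used here do not give the strand setting of the counting, so reads from these bases cannot be told apart. Per kilobase of exon the level of Abcg8 over that of Abcg5 was 1.18, 1.03 and 1.10 in BM livers and 0.816, 1.02 and 0.911 in BMT livers. In code SI epithelium the same ratio of levels was 0.570, 0.557 and 0.624 in BM and 0.918, 0.957 and 0.677 in BMT. The ratio was lower in each BMT liver than in any BM liver and higher in each BMT epithelium than in any BM epithelium. This ratio was examined after its values were seen and carries no test. Whether it lies above or below 1 depends on the lengths used. These were 2712 exon bases for Abcg5 and 3749 for Abcg8, while their longest coding transcripts have 2351 and 3667 bases.

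**Figure D2:**
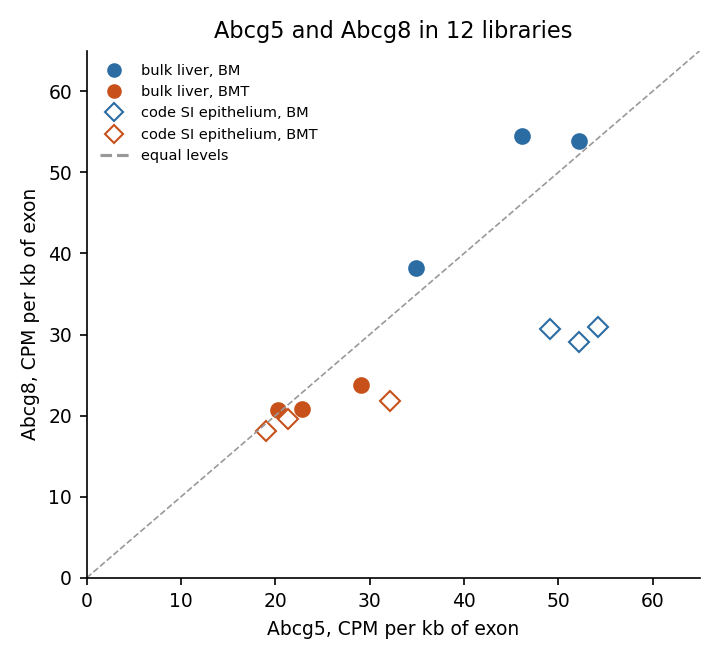
Abcg8 against Abcg5 in CPM per kilobase of exon, 1 point per library, for liver (filled circles) and code SI epithelium (open diamonds), with a dashed line at equal levels. The BM livers lie above the line (ratios 1.03 to 1.18) and the BM epithelium well below it (0.557 to 0.624), while the BMT livers (0.816 to 1.02) and BMT epithelium (0.677 to 0.957) lie at lower levels of both genes than the BM libraries of their tissue. The place of a point against the line depends on the gene lengths used.

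The basolateral exporters differed in level and in spread. Abcc3 (chr11:94343295-94392997, minus strand) had 259, 295 and 241 CPM in BM livers and 251, 156 and 187 CPM in BMT livers, with BMT replicate 1 inside the BM range. For Abcc3 the log2 fold change was -0.24 ± 0.23 (adjusted p = 0.56). Abcc4 (chr14:118482692-118706219, minus strand) was the least abundant of the 10, with 14.6, 11.5 and 19.0 CPM in BM and 9.33, 5.27 and 8.11 CPM in BMT. The groups did not overlap, and its log2 fold change of -0.80 ± 0.25 did not pass after adjustment (adjusted p = 0.0903).

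Without overlap in CPM, 6 of the 10 genes were lower in all BMT livers (Slco1a4, Slco1b2, Abcc2, Abcg5, Abcg8 and Abcc4), against 28.0% of all genes tested. After TMM scaling 3 of the 10 remained without overlap (Slco1a4, Abcg8 and Abcc4), against 15.5% of all genes. BM replicate 3 had the lowest BM value for 9 of the 10 genes, all but Abcc4. That library also had the lowest hepatocyte marker sum of the BM livers (136765 CPM), the highest Kupffer cell marker sum (808 CPM against 369 and 486) and the largest TMM factor (1.15), and its lane is L001 in the column names, shared in liver with BMT replicate 2. Without BM replicate 3, 7 of the 10 fell: Slco1a4, Slco1b2, Abcb11, Abcb4, Abcc2, Abcg5 and Abcg8. In that fit 7.31% of all genes were called lower and 10.7% higher. With lane as a covariate Slco1a4 (adjusted p = 0.0276) and Abcg8 (0.02) passed, and within lane L002 so did Slco1a4 (0.0305), Abcg8 (0.0187) and Abcb4 (0.0421). Lane L001 holds 1 liver library of each group and gives no test of its own.

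**Figure D3:**
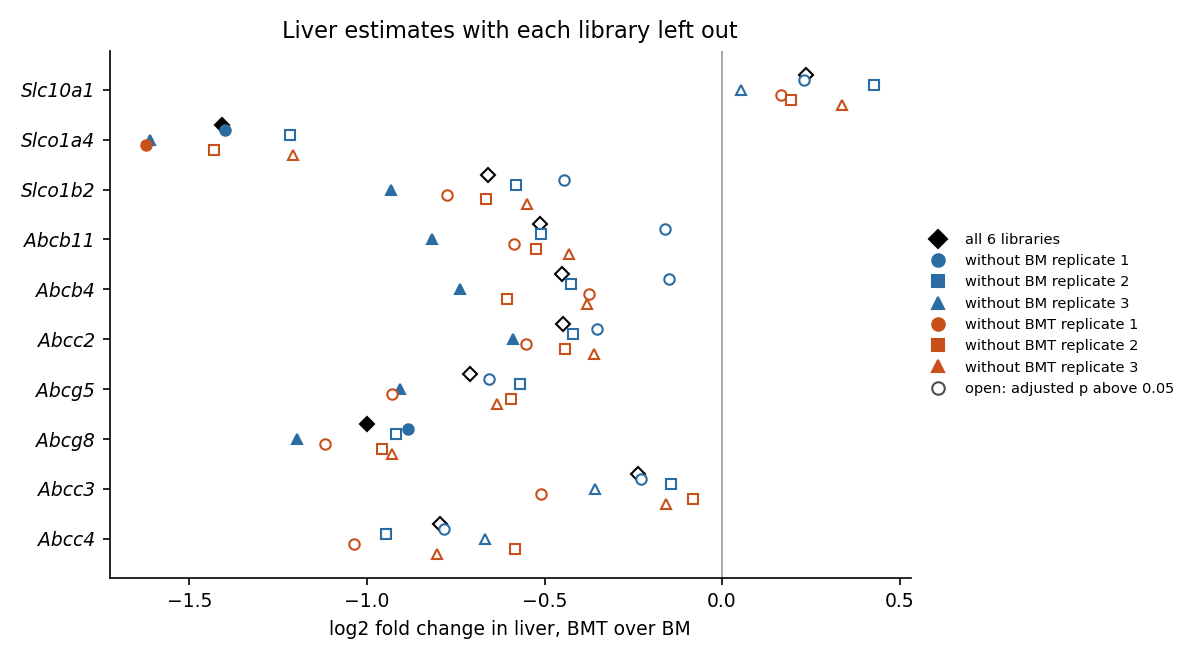
Liver log2 fold changes (BMT over BM) of the 10 genes with all 6 libraries (black diamonds) and with each library left out in turn. Filled symbols have an adjusted p of at most 0.05. Leaving out BM replicate 3 (blue triangles) fills 7 genes, and Slco1a4 and Abcg8 open in 3 and 4 of the 6 cases.

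Leukocyte transcripts moved with the groups in liver. The T cell list (10 genes, all 10 called higher) summed to 3.21 to 6.67 CPM in BM and 62.8 to 64.7 CPM in BMT, and the neutrophil list (10 of 10 called higher) to 12.3 to 17.7 and 127 to 537 CPM. Of 15 hepatocyte genes tested, 2 rose and none fell, with a median log2 fold change of 0.02. Of 5 cholangiocyte genes tested none passed, and the list summed to 35.9 to 41.8 CPM in BM and 28.0 to 34.7 CPM in BMT. Mitochondrial transcripts took 4.22 to 5.26% of counts in BM livers and 2.77 to 3.08% in BMT livers. The part of these differences in the transporter results was not tested.

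Per kilobase of exon, Slc10a1 was the most abundant of the 10 genes in BM livers, at 309 ± 67.4 CPM per kb (SD, n = 3). Abcb11 (142 ± 57.1) and Slco1b2 (140 ± 42.9) followed, with overlapping values that lay below every Slc10a1 value. Abcg8 (48.9 ± 9.23), Abcc3 (46.5 ± 4.81), Abcg5 (44.4 ± 8.79), Slco1a4 (40.9 ± 9.49), Abcc2 (38.6 ± 4.26) and Abcb4 (27.6 ± 9.89) came next, each overlapping its neighbour in this order, and Abcc4 (2.35 ± 0.591) lay below all others. In BMT livers Slc10a1 was again first at 323 ± 27.3 CPM per kb and Slco1a4 stood ninth at 13.6 ± 3.17. These lengths count all annotated exon bases, 9383 for Abcb4 and 6414 for Slco1a4. The longest coding transcripts of these genes have 4079 and 3823 bases. The ranks between Slc10a1 and Abcc4 in both groups thus depend on the length used.

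The genes whose centred log2(CPM + 1) profile over the 6 livers was closest to that of Slco1a4, among 8963 genes with at least 5 CPM, were Lipc (hepatic lipase; root mean square difference 0.21), Akr1c6 (an aldo-keto reductase, 0.21) and the mitochondrial ribosomal RNA mt-Rnr2 (0.238). For Abcg8 they were Cat (catalase, 0.0414), Tprkb (0.0664) and Serpinf1 (0.0748). Abcg5 ranked 36 by likeness to Abcg8 (0.174), and Abcg8 ranked 11 by likeness to Slco1a4 (0.29). These distances include the difference between the groups.

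Other genes of bile and sterol handling moved both ways in liver, where 7.46% of all genes were called higher and 3.35% lower. Of 20 further hepatobiliary transporter genes, 18 were tested, 1 rose and 2 fell. Abcb1a, a multidrug exporter, fell from 25.7 ± 4.27 to 12.6 ± 2.34 CPM (adjusted p = 0.0468), while its paralog Abcb1b rose from 0.335 ± 0.113 to 1.61 ± 0.277 CPM (adjusted p = 0.00728). Of 16 nuclear receptors and liver factors, 1 fell and 1 rose. The stress response factor Nfe2l2 fell from 92.6 ± 16.5 to 53.0 ± 2.36 CPM (adjusted p = 0.033) and the retinoic acid receptor Rara rose from 13.4 ± 1.68 to 19.1 ± 5.03 CPM (adjusted p = 0.045).

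Of 11 genes for canalicular scaffolds and trafficking, 2 rose and none fell in liver. They were Ezr and Msn (adjusted p = 0.0389 and 0.0317), which link membranes to actin; Msn is also abundant in leukocytes. Of 14 tested genes of sterol transport and LXR targets, 5 rose and 1 fell. Srebf2, the regulator of cholesterol synthesis, rose from 46.6 ± 4.93 to 82.7 ± 10.4 CPM (log2 fold change 1.00 ± 0.13, adjusted p = 0.00436). Scarb1, the HDL receptor, rose from 226 ± 21.01 to 345 ± 26.1 CPM (adjusted p = 0.0159), and Osbpl3 rose at low level (0.822 ± 0.351 to 3.25 ± 0.184 CPM, adjusted p = 0.00752). Npc1, which releases cholesterol from lysosomes, fell from 143 ± 12.7 to 81.9 ± 4.999 CPM (adjusted p = 0.03).

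Outside the liver, Slc10a1, Slco1a4, Slco1b2, Abcb11 and Abcb4 stood at no more than 0.857 CPM in any epithelial library. Slco1a4 had 0 counts in every BM epithelium library, which places its BM liver level at least 5572-fold above code SI and 5909-fold above code LI (3 counts over the group of 3). Abcb11 had 0 counts in the 3 code SI BM libraries (at least 15622-fold) and 2 counts in all in code LI (ratio 24852, exact 95% counting interval 6879 to 205214). Slco1b2 had 0 counts in code SI BM (at least 14670-fold) and 2 counts in all in code LI BM. Slc10a1 and Abcb4 had 9 and 10 counts in all in code SI BM. These counts cover counting error only. The counts above 3 of Slc10a1 (15), Slco1b2 (20) and Abcb11 (9) in a BMT epithelium were all in code SI replicate 3, the library that held albumin transcripts. Abcb4 had 7 counts in code LI BMT replicate 1 and at most 3 in the other BMT epithelium libraries.

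**Figure D4:**
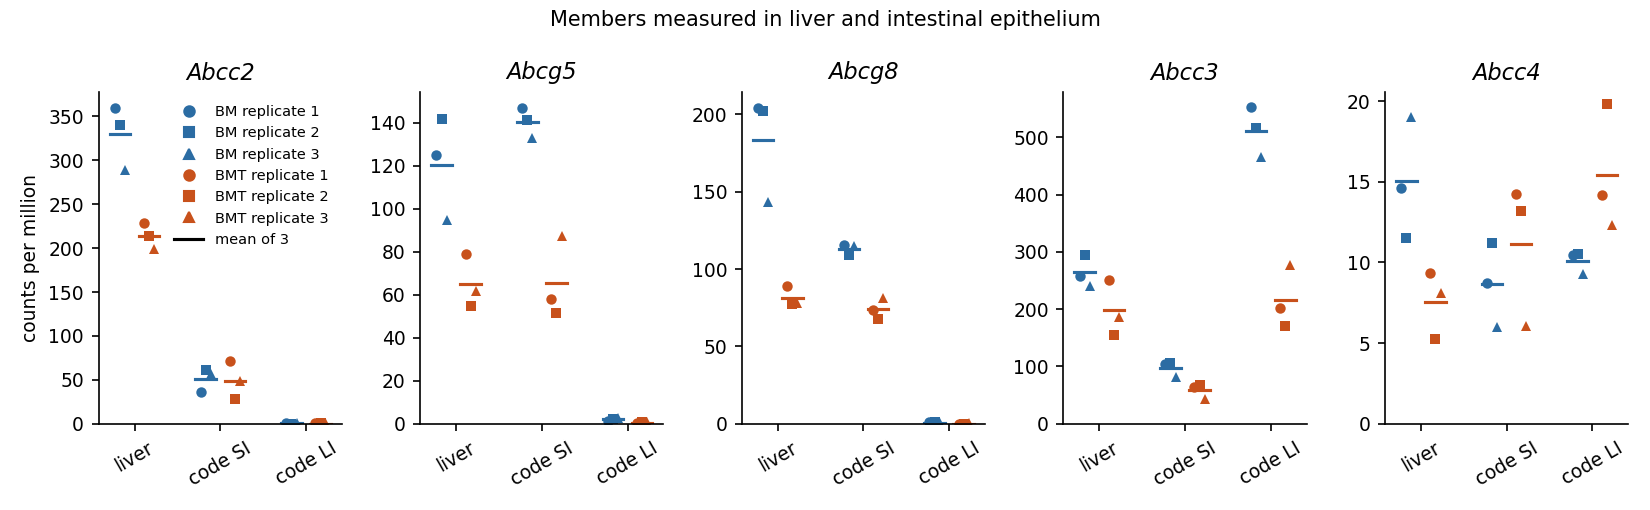
CPM of the 5 genes with measurable epithelial levels in liver, code SI and code LI epithelium, with BM in blue, BMT in orange and means as bars. Abcc2, Abcg5 and Abcg8 are near 0 in code LI, Abcc3 is highest in code LI BM libraries (465 to 553) and Abcc4 is low everywhere.

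Among BM libraries, compared in 1 edgeR model with tissue and mouse, the level in liver exceeded that in code SI for Abcc2 (log2 difference 3.37 ± 0.26, adjusted p = 7.24e-07), Abcc3 (2.11 ± 0.15, adjusted p = 3.1e-07), Abcc4 (1.47 ± 0.25, adjusted p = 0.000305) and Abcg8 (1.33 ± 0.20, adjusted p = 0.000129). Of 16107 genes, 33.6% were called higher in liver than in code SI. Abcg5 did not pass (0.44 ± 0.21, adjusted p = 0.0851), but passed without liver BM replicate 3 (0.67 ± 0.18, adjusted p = 0.00421) and with relative log expression factors (0.53 ± 0.21, adjusted p = 0.0415). Its direction depends on the scaling: in CPM, without TMM factors, Abcg5 was lower in liver (120.5 ± 23.8, SD, n = 3) than in code SI (140.6 ± 7.00). Against code LI, where 32.4% of genes were called higher in liver, Abcg5 (6.54 ± 0.28, adjusted p = 6.76e-09) and Abcc4 (1.23 ± 0.24, adjusted p = 0.000962) were higher in liver. Abcc3 had a log2 difference of -0.30 ± 0.14 (adjusted p = 0.0832). In CPM, without TMM factors, Abcc3 was 264.9 ± 27.4 in liver and 511.7 ± 44.3 in code LI, without overlap. Between the epithelial sets, Abcc3 was lower in code SI than in code LI (-2.41 ± 0.15, adjusted p = 1.04e-06) and Abcg5 higher (6.10 ± 0.28, adjusted p = 1.44e-07). The calls were 14.9 and 13.9% of genes in these directions, and Abcc4 did not pass (-0.24 ± 0.24, adjusted p = 0.5). Across these tissues the TMM scaling placed the median gene 0.10 below 0 for liver against either set. The size of the other differences also depends on the scaling. Pooled over BM libraries in CPM, without TMM factors, liver over code SI was 6.46 for Abcc2, against 10.4 in the model. It was 2.69 against 4.31 for Abcc3, 1.72 against 2.77 for Abcc4 and 1.62 against 2.51 for Abcg8. For Abcc4, liver over code LI was 1.49 against 2.35.

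In code SI epithelium, 3 of the 5 tested genes fell with T cells and none rose, where 11.8% of 14621 genes were called lower and 11.6% higher. Abcg5, which with Abcg8 returns sterols to the lumen, had 147, 142 and 133 CPM in BM and 57.9, 51.4 and 87.2 CPM in BMT. The groups were far apart, and BMT replicate 3 was the highest of its group. The log2 fold change was -1.04 ± 0.21 (adjusted p = 0.00505). Abcg8 had 116, 109 and 115 CPM in BM and 73.5, 68.0 and 81.6 CPM in BMT, without overlap, as for 22.9% of all genes in this direction. Its log2 fold change was -0.56 ± 0.15 (adjusted p = 0.0206), a call that held in 1 of 6 fits with a library left out, the one without BMT replicate 3 (adjusted p = 0.00841). The adjusted p was 0.0554 to 0.0703 in the other 5. Over 14 settings, which include the main fit and these 6, the call held in 8, and the adjusted p reached 0.096.

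Abcc3 in code SI had 104, 107 and 82.3 CPM in BM and 64.5, 68.4 and 44.1 CPM in BMT, without overlap. Its log2 fold change was -0.69 ± 0.18 (adjusted p = 0.0194). The adjusted p was 0.0735 without BM replicate 1 and 0.0799 without BM replicate 2. Abcc2, an apical exporter in enterocytes, had 35.7, 61.5 and 56.8 CPM in BM and 71.2, 27.8 and 48.7 CPM in BMT. The BMT libraries lay on both sides of the BM range (log2 fold change -0.01 ± 0.30, adjusted p = 0.992, interval of 2 standard errors -0.60 to 0.59). Abcc4 had 8.73, 11.2 and 5.98 CPM in BM and 14.2, 13.2 and 6.09 CPM in BMT, with a log2 fold change of 0.40 ± 0.32 (adjusted p = 0.399). Replicate 3 was the lowest of both groups for Abcc4.

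In code LI epithelium, 3 of the 10 genes passed the filter on low counts. Abcc3 and Abcg5 fell and Abcc4 rose, where 21% of 14880 genes were called lower and 20.4% higher. Abcc3 had 553, 516 and 465 CPM in BM and 201, 171 and 277 CPM in BMT, without overlap, as for 28.3% of all genes in this direction. The log2 fold change was -1.22 ± 0.20, a 2.32-fold lower level (adjusted p = 0.000729), and it passed in all 6 fits with a library left out. Abcc4 had 10.4, 10.6 and 9.29 CPM in BM and 14.2, 19.8 and 12.3 CPM in BMT, with every BMT value above every BM value, as for 25.2% of all genes. Its log2 fold change was 0.61 ± 0.19 (adjusted p = 0.0228). Of the 6 fits with a library left out, the call held only without BMT replicate 1 (0.0233) or BMT replicate 3 (0.00491). The adjusted p was 0.0707, 0.0579 and 0.0738 without BM replicates 1, 2 and 3, and 0.0765 without BMT replicate 2. In a fit of all 18 libraries it was 0.102.

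Abcg5 in code LI stood at low counts, 27, 47 and 64 in BM and 4, 17 and 16 in BMT, or 1.38, 2.11 and 2.499 and 0.179, 0.763 and 0.763 CPM. Here its log2 fold change was -1.81 ± 0.47 (adjusted p = 0.0106, and 0.0545 without BM replicate 3). Abcg8 had 17, 25 and 10 counts in BM and 2, 3 and 6 in BMT and did not pass the filter. Abcc2, with 39 counts in BM and 18 in BMT over the group, did not pass it either. Pooled over BM libraries in CPM, without TMM factors, liver Abcg8 was 238 times its code LI level (exact 95% counting interval 182 to 319). Abcc2 was 571 times its code LI level (418 to 804). On this scale Abcg5 was 59.04 times its code LI level, against 92.9 times in the TMM-scaled model above. The intervals cover counting error only, not the spread between samples or the scaling. All 10 T cell genes rose in both epithelial sets, and their sum went from 4.12 to 12.7 CPM in BM to 187 to 277 CPM in BMT in code SI, and from 6.62 to 8.86 CPM to 330 to 535 CPM in code LI. The 7 intestinal epithelial markers summed to 10501 to 11133 CPM in BM and 13002 to 14449 CPM in BMT in code SI, where 3 rose and none fell, and to 9831 to 10589 and 11472 to 13369 CPM in code LI, where 3 rose and 1 fell. Neutrophil markers summed to 34.3 to 51.9 and 10.8 to 27.1 CPM in code SI and to 179 to 223 and 718 to 1412 CPM in code LI. The part of these differences in the epithelial results was not tested.

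**Figure D5:**
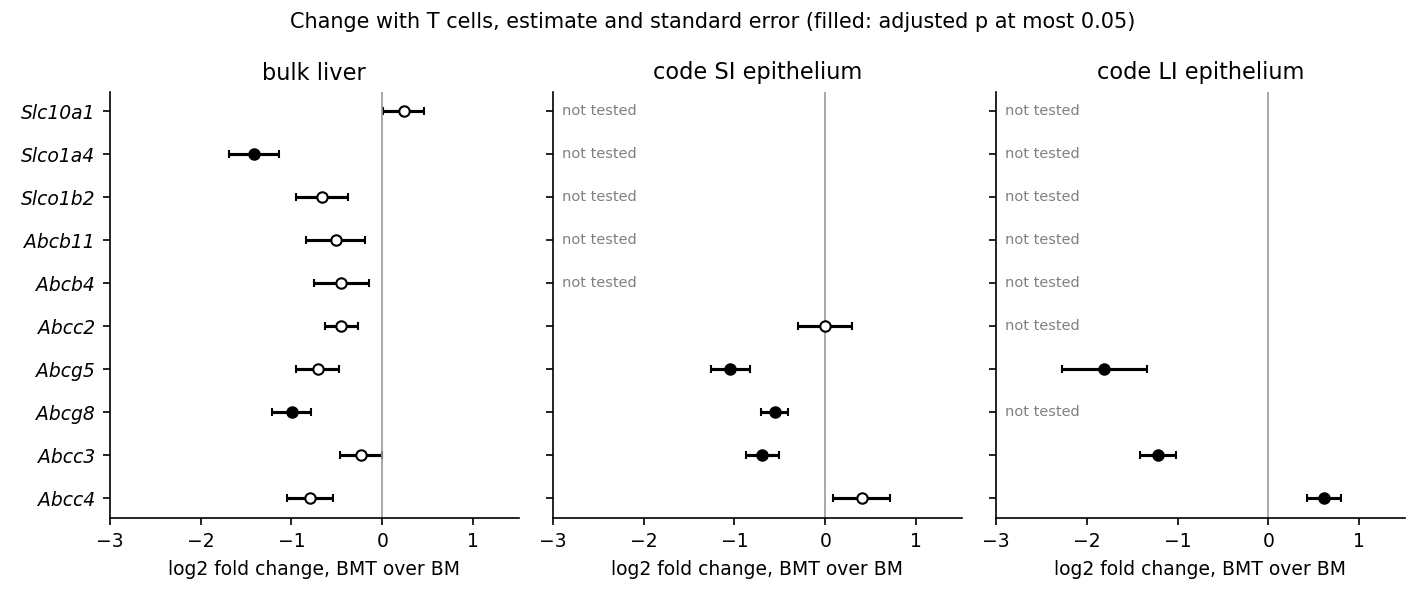
Log2 fold changes (BMT over BM) with standard errors for the 10 genes in liver, code SI and code LI epithelium, filled where the adjusted p is at most 0.05. Abcg5 lies below 0 in all 3 tissues (-0.71, -1.04 and -1.81), and Abcc4 lies below 0 in liver (-0.80) and above 0 in code LI (0.61).

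The change with T cells was compared between tissues in 1 model of all 18 libraries with mouse as a term, for the genes that passed the low-count filter in both tissues compared. Abcc4 differed between liver and code LI, with a difference of log2 fold changes (liver minus code LI) of -1.39 ± 0.41 (adjusted p = 0.0277). Abcc3 differed too, by 1.01 ± 0.32 (adjusted p = 0.0379), with log2 fold changes of -0.24 in liver and -1.22 in code LI. Of 17275 genes, 18.8% were called in this contrast. Of 18 fits with a library left out, 11 kept the Abcc4 call (adjusted p = 0.0166 to 0.097) and 6 the Abcc3 call (0.00186 to 0.135). Abcc4 against code SI did not pass (-1.16 ± 0.41, adjusted p = 0.0701), where 15.0% of genes were called.

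The sterol exporter genes did not pass a test of difference between tissues in the main fit. The difference of log2 fold changes, liver minus code SI, was 0.40 ± 0.39 for Abcg5 (adjusted p = 0.538) and -0.39 ± 0.28 for Abcg8 (adjusted p = 0.39), and liver minus code LI for Abcg5 was 1.18 ± 0.53 (adjusted p = 0.142). This Abcg5 difference from code LI passed in 1 of 18 fits with a library left out, the one without liver BMT replicate 3 (adjusted p = 0.0489). Abcc2 (-0.37 ± 0.40, adjusted p = 0.576) and Abcc3 (0.43 ± 0.32, adjusted p = 0.394) did not pass between liver and code SI. Between the epithelial sets none of 3 genes passed (Abcc3 0.58 ± 0.32, Abcc4 -0.22 ± 0.40, Abcg5 0.78 ± 0.53), where 4.91% of all genes were called. None of these 3 had an unadjusted p under 0.05.

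Other genes of these pathways were called in the epithelium. In code SI, 4 of 17 further transporter genes rose and 2 fell. Slc10a2, which takes up bile acids from the ileal lumen, rose from 376 ± 72.3 to 845 ± 280 CPM (log2 fold change 1.23 ± 0.26, adjusted p = 0.0056). In code LI, 4 of 16 rose and 8 fell. Slc51b, a subunit of the basolateral bile acid exporter OST, rose from 32.7 ± 1.77 to 110.0 ± 5.36 CPM (log2 fold change 1.76 ± 0.13, adjusted p = 2.83e-06), and Slc10a5 fell from 49.1 ± 8.27 to 10.1 ± 1.28 CPM (adjusted p = 6.7e-06).

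Of the nuclear receptors and factors, 2 of 16 fell and none rose in code SI (Foxa2 and Cebpa), and 7 of 15 fell and 1 rose in code LI. There Nr5a2 (LRH-1) fell from 61.6 ± 4.57 to 25.5 ± 2.27 CPM (adjusted p = 2.52e-05) and Ppara from 24.3 ± 4.33 to 7.92 ± 2.15 CPM (adjusted p = 0.000391). Of the sterol transport and LXR target genes, 1 of 13 rose and 2 fell in code SI, and 6 of 14 rose and 2 fell in code LI. Abca1, a cholesterol exporter, fell in code SI from 2.41 ± 0.574 to 0.499 ± 0.459 CPM (adjusted p = 0.0127), and Mylip, an LXR target, fell in code SI (adjusted p = 0.0445) and code LI (adjusted p = 1.79e-05). Scarb1 rose in code SI from 4.96 ± 0.890 to 13.2 ± 6.41 CPM (adjusted p = 0.0142). In code LI Abcg1 rose from 1.54 ± 0.367 to 3.52 ± 0.855 CPM (adjusted p = 0.00933). There Npc1 also rose, from 35.1 ± 2.78 to 68.7 ± 28.8 CPM (adjusted p = 0.00715), and Stard4 fell (adjusted p = 0.000469). The scaffold genes Ezr and Msn rose in both sets. Msn, which is also abundant in leukocytes, went from 1.16 ± 0.395 to 31.9 ± 1.33 CPM in code SI. In code LI it went from 1.13 ± 0.446 to 66.7 ± 23.2 CPM. Ezr went from 894 ± 96.0 to 1698 ± 200 CPM in code SI (adjusted p = 0.00244) and from 826 ± 81.5 to 1452 ± 194 CPM in code LI (adjusted p = 0.00106).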

How the data were processed

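Per the file headers, the authors deposited 1 table of whole-number gene counts, not normalized, for 18 libraries. Per the submitters' processing notes the tools were FastQC 0.11.9, STAR 2.7.0e and featureCounts 1.6.3, with build GRCm38.p5. The annotation release and strand setting of that step were not given in the sources used here. Per the labels' protocols, polyA-selected RNA went through a stranded kit. Symbols were matched for 53274 of 53379 IDs with GENCODE release 21, and unmatched IDs hold 0.00257% of counts.

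Members and lists were chosen with earlier results of these data known. For each tissue 1 fit was made in edgeR 4.0.16 (R 4.3.3), with its expression filter, TMM scaling and a two-sided quasi-likelihood test. CPM values use library totals without TMM factors, which lay between 0.883 and 1.15 in liver, so fold changes differ from ratios of CPM. The standard error is the log2 fold change over the root of F. In the 18-library fits mouse was a term because the descriptions repeat each number across tissues, read as the mouse. Deviations of same-numbered libraries correlated at -0.029 to 0.183. The labels do not call these numbers mice, so p-values measure the spread between samples, which may be technical. DESeq2 1.42.0 was an alternative, with the other scalings, filters, lane and left-out libraries given below.

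Named genes are all 10 members, up to 4 called genes of smallest p per other list and tissue (or 1 where none passed), and 3 nearest genes per member called in liver. One gene that this rule names is not reported here. Hoxb13, Fabp6, Alb and Ahsg were chosen after their values were seen. On simulated liver counts (14134 genes) 0% of 1.5-fold, 26.9% of 2-fold and 87.9% of 4-fold changes were recovered. For code SI (14621 genes) these were 10.45, 49.3 and 90.9%, and for code LI (14880 genes) 10.45, 74.6 and 97.0%. In each set only 67, 67 and 66 genes were changed at these folds. In the data 1528, 3420 and 6157 genes were called in liver, code SI and code LI. The adjusted p depends on the share of genes that change, so these rates do not carry over to the data.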

Additional observations from a re-analysis of the deposited data

Results flagged for a closer look

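For Abcc3 and Abcc4 the change with T cells differed between tissues by a test of the difference itself. The Abcc3 difference in log2 fold change (liver minus code LI) was 1.01 and that of Abcc4 was -1.39, as described above. Slco1b2 also gave a low p for liver minus code SI (-6.32, adjusted p = 0.037, edgeR's quasi-likelihood test), but it entered that model through its liver level, did not pass the filter in code SI, and is not counted as a gene that differed. It had 0 counts in the 3 code SI BM libraries and 2, 0 and 20 counts in the BMT libraries, and the 20 counts lie in replicate 3, which held 94.8 CPM of albumin transcripts. Without that library the Slco1b2 difference was -3.57 (adjusted p = 0.158), and 10 of 18 fits with a library left out passed. The fitted size rests on counts near 0 and is no measure of fold.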

How the results depend on the processing

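Transporter genes called in liver numbered 2, and 4 with DESeq2 or without the low-count filter (adding Abcc4 and Abcg5), 5 by library size alone (adding Abcc2 as well) and 3 with the replicate block, which added Abcc4 (adjusted p = 0.0312). Of all genes, 3.35% were called lower in the main fit and 5.43% with DESeq2. The share was 2.34% without the filter, 8.37% by library size alone and 3.57% with the replicate block. With a library left out the transporter genes called numbered 0 to 7, where 0.76 to 7.31% of all genes were called lower. Library size alone shifted the median log2 fold change of all genes by -0.18 and the share of liver calls that were higher from 69 to 40.7%, while the 9 estimates below 0 and that of Slc10a1 above 0 kept their signs under each scaling tried. Code SI calls numbered 3, 5 without the filter (adding the near-zero Abcb11 and Slco1b2) and 1 to 3 with a library left out. Without the filter 8.19% of all genes were called lower there and 8.02% higher. With a library left out these shares were 7.03 to 12.4% and 6.85 to 12.7%. Code LI calls numbered 3, and 2 to 4 with a library left out, where 15.4 to 23.0% of all genes were called lower and 16.1 to 23.7% higher. Among transporter genes that passed the filter in both tissues compared, differences of the T cell effect called for liver minus code SI numbered 0, 1 without the filter (Abcc4), and 0 to 1 with a library left out. For liver minus code LI they numbered 2, and 0 to 3 with a library left out. Without the filter Abcg5 was called there too (1.17, adjusted p = 0.0108). In that setting 4.2% of all genes were called lower and 5.82% higher for liver minus code SI, and 4.75 and 6.72% for liver minus code LI. The replicate block left the 3 code SI and 3 code LI calls, and dropping the mouse term (no replicate block) left 0 and 2 such differences. Title numbers go with different description numbers in BM and BMT: same-numbered BM and BMT livers correlated at 0.185, -0.035 and 0.34.

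Estimates near 0 changed sign: Abcc2 in code SI was 0.019 in a fit of all 18 libraries and -0.33 to 0.26 with a library left out. With a library left out, the difference for Abcg5, liver minus code SI, ran from -0.016 to 0.74, that for Abcc4, code SI minus code LI, from -0.48 to 0.067, and the BM level of Abcc4, code SI minus code LI, from -0.53 to 0.021. All genes called in liver numbered 1528, and 569 to 2617 with a library left out, and in code SI 3420 and 2086 to 3775. Tissue differences called over all genes ran from 1566 to 2691 (liver and code SI), 2185 to 3520 (liver and code LI) and 397 to 1377 (both epithelial sets), against 2588, 3242 and 848. The cause of these shifts was not tested.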
